A study of Macaca mulatta with 102 samples.

Results

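RNA from cell-free milk was compared with RNA from milk cells of the same 6 lactating rhesus macaques, called M1 to M6, at day 90 post-partum. These are 12 of the 34 samples of the series, or 36 of its 102 sequencing runs, with 3 technical runs averaged per sample. The 6 milk cell samples carry the label Cells. No label reads cell-free: the 6 other samples are labelled FatS10 in 4 animals, FatsS10 in M4 and Skim10m in M3, and were taken as cell-free milk because the study counts 6 such samples at day 90. All values for cell-free milk hold only if that reading is right. The 6 milk fat samples of day 90, labelled Fat, were used for comparison. The dams were prime-aged and multiparous, nursed male infants, came from an outdoor breeding colony and were milked by hand after oxytocin under light sedation. Milk cells were pelleted from the milk by centrifugation and washed, whereas the preparation of the cell-free fraction is not given in the sources used here. Each dam also had a mammary biopsy, which the study took after milking. By the labels, M3, M4 and M6 were biopsied at day 30, before the milk compared here, and M1, M2 and M5 at day 90. According to the study, a single animal, which the labels do not identify, developed mastitis after its biopsy and was treated with antibiotics.

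Milk fat leaves the mammary epithelial cell as a globule that buds from the apical membrane. The droplet is coated by PLIN2, or perilipin 2, and now and then a crescent of cytoplasm with its RNA is enclosed beneath the globule membrane. Milk thus holds epithelial RNA outside cells, beside shed epithelial cells and leukocytes in the cell pellet. The question put to these samples was how the RNA left in milk without cells differs from the RNA of the cells themselves.

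The values are FPKM (fragments mapped to a transcript, divided by its length and by the sequencing depth) of Ensembl transcripts on the rheMac2 assembly, so that levels can be compared between transcripts per length. Depth relative to the median sample, estimated from the spacing of low FPKM, lay between 0.906 and 1.26 in cell-free milk and between 0.842 and 1.18 in milk cells. The files pair no transcript with a gene name, and 35 transcripts could be tied to names: 30 of 26 genes, and 5 short non-coding RNAs. Markers of leukocytes and of other cell types could not be tied to transcripts and were not checked. In bulk RNA, fewer cells of a type and less RNA per cell cannot be told apart.

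The clearest difference was in PLIN2, all 4 of whose transcripts were 5.07 to 6.80 times higher in cell-free milk than in milk cells, in 6 of 6 animals. The milk protein transcripts, which make up most of the summed FPKM in both, did not pass the test. MT1E, FTH1, GALK1, PGM1 and CMPK1 rose by less, and a short non-coding RNA of chromosome 2 fell. A further 63 transcripts, none of them named, were called more than 3-fold lower in cell-free milk, a count that was 185 at a pseudocount of 0.1, 5 at a pseudocount of 5 and 2 without the filter on low levels. The test was limma on log2(scaled FPKM + 1) with animal as a block, and an adjusted p is the Benjamini-Hochberg value over all 13371 transcripts tested.

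Of these 13371 transcripts, 97.8% differed less than 2-fold between cell-free milk and milk cells in the fitted means. At an adjusted p under 0.05, 699 transcripts (5.23%) were higher and 477 (3.57%) lower in cell-free milk. These counts, and so the shares set beside the lists, ran from 7 higher and 30 lower without M4 to 2343 higher and 1285 lower without M3. The cell-free sample of M3 is the only one labelled Skim10m, so animal and label cannot be told apart there. The share higher also rose with level, from 1.59% at 1 to 5 FPKM to 13.8% at 100 to 1000 FPKM. The 5.23% and 3.57% set beside the lists are taken over all levels. With a change of more than 3-fold as a further condition, 6 (0.0449%) were called higher and 63 (0.471%) lower. At an adjusted p under 0.05 and any fold, the direction of the counts depended on how samples were scaled. Of the transcripts past the threshold, 59.4% were higher under median-of-ratios factors and 81.6% with FPKM as deposited. The percentage was 25% with the 75th percentile and 16.5% with the sum outside the 50 highest transcripts. The median log2 fold change of all transcripts tested was 0.06 and moved to -0.08 under the last of these scalings, a shift of -0.14. The calls at 3-fold kept their split under these scalings, between 5 and 8 higher and between 63 and 70 lower.

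The numbers of calls at 3-fold also rested on single animals. Without M4, 5 transcripts were called higher and 13 lower, and without M5, 5 higher and 12 lower. Without M2 the count of lower calls was 34, and without M6 it was 33, whereas without M1 it was 73 and without M3 71. The transcripts called in the 6 animals and again without M4 numbered 18, and without M5 17.

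**Figure D1:**
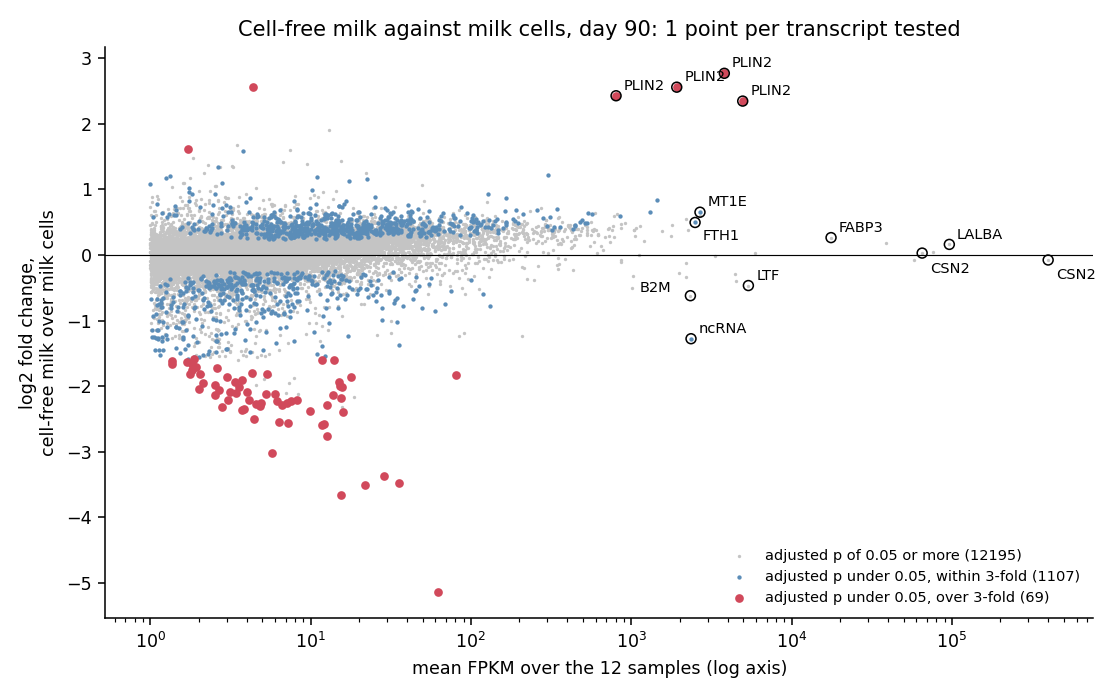
The plot shows 1 point for each of the 13371 transcripts tested, with the mean FPKM over the 12 samples on a log x axis and the log2 fold change of cell-free milk over milk cells on the y axis. The 4 PLIN2 transcripts stand alone among abundant transcripts at 2.34 to 2.77, the 63 transcripts called lower all lie under 100 FPKM, and CSN2 and LALBA lie close to 0.

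PLIN2 is represented by 4 transcripts that overlap no other: ENSMMUT00000019644 at chr15:57855543-57859818, ENSMMUT00000025856 at chr15:57864460-57866618, ENSMMUT00000016990 at chr15:58240050-58241364 and ENSMMUT00000019645, a locus of 376 bases at chr14:67231622-67231997. Reads could be shared between such similar loci, so their values are not independent of each other. ENSMMUT00000019645 had the highest FPKM of these in both types, with a lowest, median and highest value of 4677, 9037 and 10178 FPKM in cell-free milk and of 1247, 1560.1 and 1928 FPKM in milk cells. The 6 cell-free samples lay above all 6 milk cell samples, and the log2 fold change was 2.34 ± 0.16 (SE, adjusted p = 0.00161).

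ENSMMUT00000025856 had the largest fold change. It was at 3834, 6957 and 8481 FPKM (lowest, median, highest) in cell-free milk and at 741, 881 and 1283 FPKM in milk cells, again without overlap. Its log2 fold change was 2.77 ± 0.16 (SE, adjusted p = 0.000882), and the ratio of FPKM within an animal ran from 4.97 in M5 to 10.01 in M4. For ENSMMUT00000016990 the values were 1769.05, 3592 and 4221 FPKM in cell-free milk against 403, 509 and 688 FPKM in milk cells, a log2 fold change of 2.55 ± 0.16 (SE, adjusted p = 0.00101). For ENSMMUT00000019644 they were 789, 1491 and 1687 FPKM against 191, 241 and 283 FPKM, a log2 fold change of 2.42 ± 0.13 (SE, adjusted p = 0.000882). Groups without overlap were found for 173 transcripts tested (1.29%) with cell-free milk higher and for 153 (1.14%) with it lower.

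The PLIN2 level in cell-free milk lay between those of the milk cells and the milk fat in every animal. Against milk fat, the 4 transcripts were lower in cell-free milk by log2 fold changes of -1.65 to -2.11 (adjusted p between 0.00306 and 0.00319), and milk fat was itself higher than milk cells by 4.05 to 4.90. These comparisons share samples and are given side by side. Together, PLIN2 took 0.990% to 2.19% of the summed FPKM of a cell-free sample (median 1.96%), 0.256% to 0.388% of a milk cell sample (median 0.307%) and 2.30% to 8.63% of a milk fat sample (median 7.04%). In all 3 types the lowest share was that of M5. PLIN2 held 3 of the 20 most abundant transcripts of cell-free milk and 0 of those of milk cells.

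**Figure D2:**
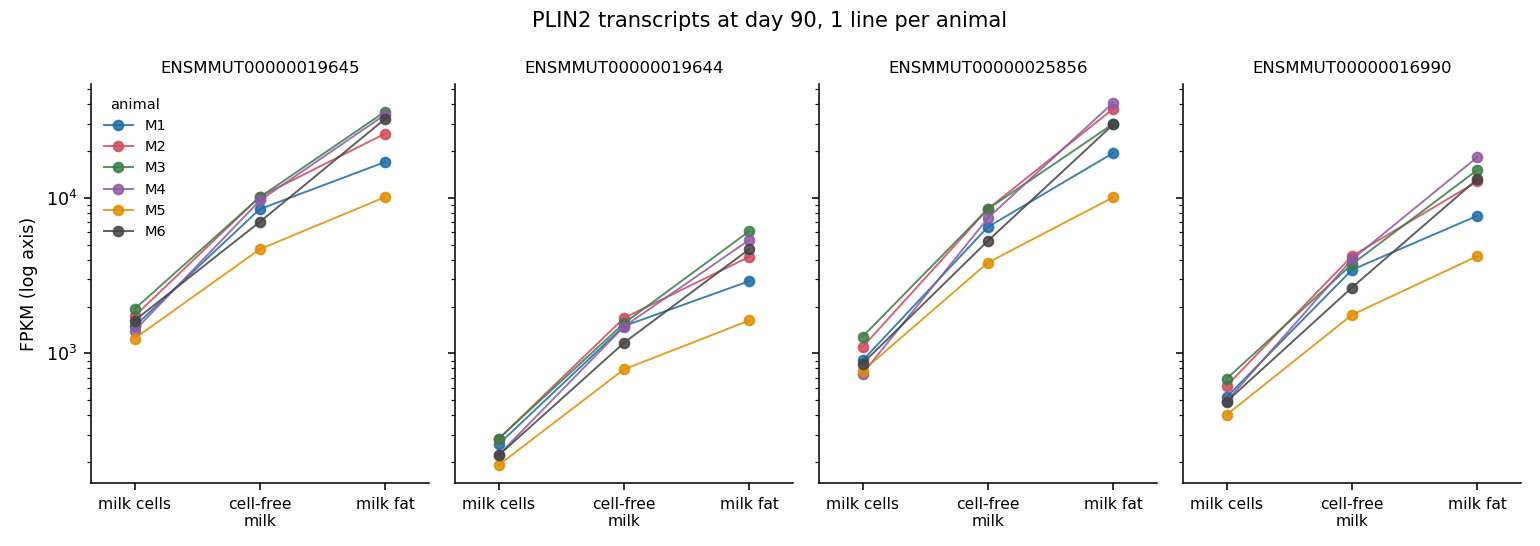
FPKM of the 4 PLIN2 transcripts on a shared log axis, with 1 line per animal through its milk cells, cell-free milk and milk fat of day 90. All 6 lines rise from milk cells to cell-free milk and again to milk fat in each panel, and M5 is lowest in cell-free milk and in milk fat.

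FABP3, a fatty acid binding protein of the milk fat globule and the other named member of the lipid list, did not pass the test against milk cells. It was at 13128, 18999.7 and 25122 FPKM (lowest, median, highest) in cell-free milk and at 9943, 16496 and 19336 FPKM in milk cells, so that the groups overlapped. Its log2 fold change was 0.26 with a 95% interval from -0.10 to 0.63 (adjusted p = 0.276). With FPKM as deposited it was higher in 6 of 6 animals, with a log2 fold change of 0.29 (adjusted p = 0.0340). Against milk fat, FABP3 was lower in cell-free milk by a log2 fold change of -0.90 ± 0.17 (SE, adjusted p = 0.00587). Of the 5 lipid droplet and milk fat globule transcripts, 4 rose over milk cells and 0 fell, all 4 of PLIN2, beside 5.23% higher and 3.57% lower among all transcripts. All 5 were lower than in milk fat, beside 25.6% of all transcripts tested in that comparison (21.5% were higher).

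Milk proteins were the bulk of both samples. The 9 named transcripts of CSN2, CSN3, LALBA, LGB2, LYZ, LTF, GLYCAM1 and SPP1 took 63.4% to 70.3% of the summed FPKM in cell-free milk (median 68.8%) and 61.9% to 76.3% in milk cells (median 72.7%). The share was lower in cell-free milk in 5 of 6 animals, by 3.46 percentage points on average (SD 2.77, n = 6). The exception was M2, whose milk cells held the lowest share. CSN2 and CSN3, which encode beta- and kappa-casein of the micelle, took 42.4% to 54.1% in cell-free milk and 43.4% to 60.6% in milk cells, less in cell-free milk in 6 of 6 animals. These shares were not tested.

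None of the 9 milk protein transcripts passed the test across transcripts. Their median log2 fold change was 0.03, beside 0.06 for all transcripts tested. The more abundant CSN2 transcript, ENSMMUT00000042085 at chr5:59676470-59680187, ranked first in all 12 samples. It was at 368058, 377733 and 461314 FPKM (lowest, median, highest) in cell-free milk and at 324270.0, 411132 and 494120.0 FPKM in milk cells. Its log2 fold change was -0.08 with a 95% interval from -0.56 to 0.41 (adjusted p = 0.819).

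CSN3, at chr5:59423490-59435314, gave a log2 fold change of -0.08 (interval -0.57 to 0.40). LALBA, the alpha-lactalbumin that turns a Golgi galactosyltransferase into lactose synthase, gave 0.16 (interval -0.27 to 0.59). LGB2, a beta-lactoglobulin of whey, gave 0.04 (interval -0.37 to 0.46), and lysozyme, LYZ, gave 0.17 (interval -0.21 to 0.56). The second CSN2 transcript, ENSMMUT00000006853, gave 0.03 (interval -0.32 to 0.38). Scaling to the 75th percentile turned the sign of LGB2 and of this transcript, and scaling to the sum outside the 50 highest turned these as well as LALBA and LYZ, so no direction is given for them.

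The remaining milk proteins had larger fold changes that still missed the threshold. GLYCAM1, a secreted mucin-like glycoprotein, was at 1704, 3433 and 4496 FPKM in cell-free milk and at 1128, 2222 and 3010.5 FPKM in milk cells (log2 fold change 0.59 ± 0.19, adjusted p = 0.0759). SPP1, or osteopontin, was lower in cell-free milk in 6 of 6 animals, at 1008, 1766 and 3602 FPKM against 1408, 2171 and 3901 FPKM, though with overlapping groups (log2 fold change -0.34 ± 0.11, adjusted p = 0.0861). With FPKM as deposited the adjusted p was 0.0175 for GLYCAM1 and 0.0230 for SPP1. LTF, the iron-binding lactoferrin that epithelium and neutrophils both make, was lower in 5 of 6 animals, with M3 the exception (log2 fold change -0.47 ± 0.17, adjusted p = 0.0986). For both, the range over animals within a sample type was wider than the mean difference between the types: SPP1 was highest in M1 and lowest in M5 in either type, and LTF was highest in M5 in either type.

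Lactose is made in the Golgi from UDP-galactose and glucose. Transcripts of 8 genes of this pathway are described here. In cell-free milk, 3 of the 8 rose over milk cells, GALK1, PGM1 and CMPK1, 0 fell and 5 did not pass the test, beside 5.23% higher and 3.57% lower among all transcripts. At 20 to 100 FPKM, the level of PGM1 and CMPK1, 11.9% of all transcripts were higher and 2.60% lower. At 1 to 5 FPKM, the level of GALK1, these were 1.59% and 4.03%. The median log2 fold change of the 8 was 0.30. PGM1, phosphoglucomutase 1, which interconverts glucose phosphates, was at 27.1, 30.1 and 35.8 FPKM (lowest, median, highest) in cell-free milk and at 15.2, 24.7 and 33.0 FPKM in milk cells. It was higher in 6 of 6 animals, with a log2 fold change of 0.33 ± 0.07 (SE, adjusted p = 0.0389).

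GALK1, galactokinase, was expressed at low levels, with 4.26, 4.91 and 5.69 FPKM against 2.49, 3.16 and 6.00 FPKM in milk cells (log2 fold change 0.41 ± 0.09, adjusted p = 0.0377). It was higher in 6 of 6 animals after scaling and in 5 of 6 in FPKM as deposited, in which M2 was the exception. CMPK1, a nucleoside monophosphate kinase that supplies UTP synthesis, was at 28.6, 51.4 and 58.6 FPKM against 23.6, 38.0 and 51.4 FPKM (log2 fold change 0.33 ± 0.07, adjusted p = 0.0427). B4GALT1, the galactosyltransferase of lactose synthase, gave -0.15 against milk cells (interval -0.44 to 0.15, adjusted p = 0.447).

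Against milk fat, 5 of the 8 transcripts, among them UGP2 at a log2 fold change of -1.17 ± 0.17 and GALT at -0.76 ± 0.08, were lower in cell-free milk (adjusted p = 0.00331 and 0.00306), beside 25.6% lower and 21.5% higher among all transcripts tested. B4GALT1 alone of the 8 was higher than in milk fat, by 0.42 ± 0.09 in 6 of 6 animals (adjusted p = 0.00802). For UGP2, which forms UDP-glucose, cell-free milk held 104, 380.5 and 453 FPKM, milk cells 62.8, 323 and 398 FPKM and milk fat 292, 748 and 1106 FPKM, with M4 lowest in all 3 types.

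**Figure D3:**
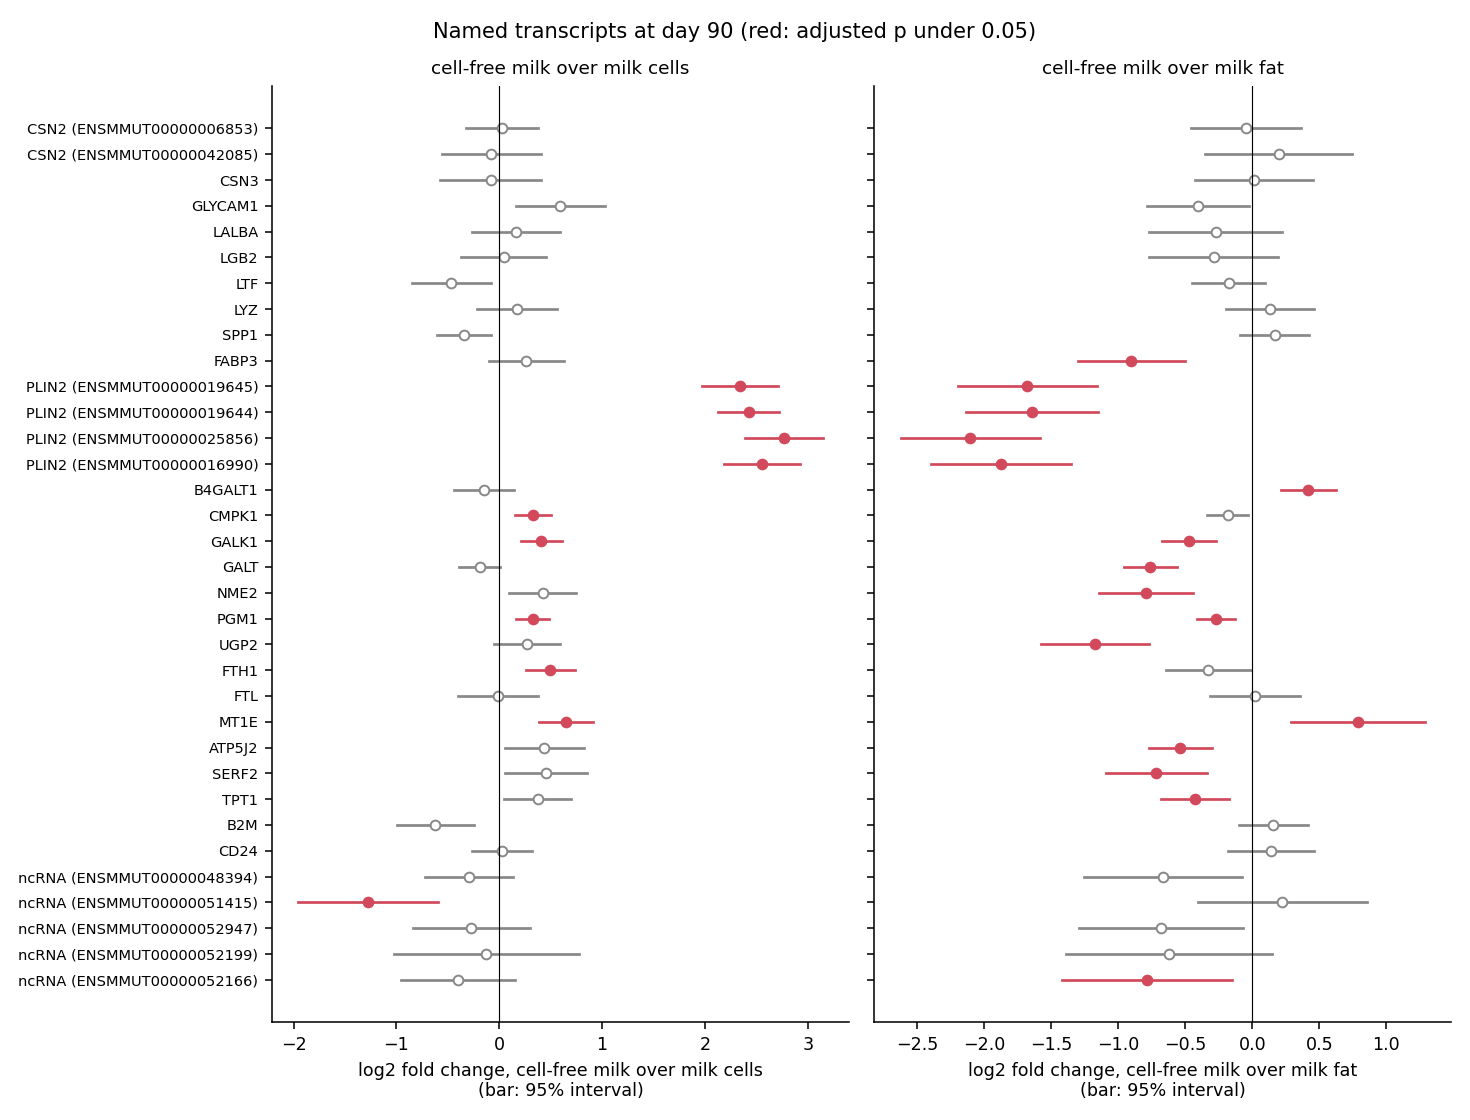
Log2 fold changes of 34 named transcripts, as points with 95% intervals, for cell-free milk over milk cells (left) and over milk fat (right), and red where the adjusted p is under 0.05. Over milk cells, 9 are higher and 1 is lower (5.23% and 3.57% of all transcripts), and over milk fat, 2 are higher (MT1E and B4GALT1) and 14 lower (21.5% and 25.6%). These percentages are not matched for level: over milk cells they are 17.9% and 2.56% for transcripts over 1000 FPKM.

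MT1E, a small cysteine-rich metallothionein that binds zinc and copper, was the named transcript with the largest rise after PLIN2. The transcript, at chr14:120913971-120914157 and 187 bases long, was at 2061, 3689 and 4215 FPKM (lowest, median, highest) in cell-free milk and at 1475, 2099 and 2467 FPKM in milk cells. Every animal had more in its cell-free milk, by ratios of 1.35 to 1.90. The log2 fold change was 0.65 ± 0.11 (SE, adjusted p = 0.0267). Unlike PLIN2, it was also higher than in milk fat, which held 1082, 1580.1 and 3420.3 FPKM, by 0.79 ± 0.21 (adjusted p = 0.0196). After scaling, 5 of 6 animals had more in cell-free milk than in the fat, and as deposited 6 of 6 did.

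FTH1, the heavy chain of ferritin, rose with a log2 fold change of 0.49 ± 0.10 (SE, adjusted p = 0.0367). Its values were 2466, 2737 and 3653 FPKM against 1338, 1971 and 3142 FPKM, with overlapping groups but a higher value in the cell-free milk of 6 of 6 animals. FTL, the light chain of ferritin, read from a locus of 198 bases, gave -0.01 with an interval from -0.40 to 0.38, and the sign changed with the scaling. The transcripts of ATP5J2, SERF2 and TPT1, 3 abundant housekeeping genes, gave log2 fold changes of 0.37 to 0.46 that did not pass the test (adjusted p between 0.110 and 0.114). With FPKM as deposited all 3 passed, at an adjusted p of 0.0276, 0.0230 and 0.0167. Several of these are short loci without other transcripts, where reads from near-identical copies may be counted.

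The calls of the smaller rises rested on single animals and on the scaling. MT1E, FTH1, GALK1, PGM1 and CMPK1 kept their direction in all alternatives tried, but without M4 their adjusted p lay between 0.108 and 0.132, without M5 between 0.102 and 0.136, without M2 between 0.0650 and 0.106 and without M6 between 0.0772 and 0.0984. Without M1 the adjusted p was 0.0738 for FTH1 and 0.0736 for CMPK1, while MT1E, GALK1 and PGM1 passed, and without M3 all 5 passed, between 0.0130 and 0.0255. The fold changes moved little: MT1E ran from 0.58 to 0.69 and FTH1 from 0.45 to 0.56 with an animal left out. With the sum outside the 50 highest as the scale, MT1E passed (adjusted p = 0.0269) and the other 4 did not. The same held with the 75th percentile, where MT1E was at 0.0323, FTH1 at 0.0561, GALK1 at 0.0594, PGM1 at 0.0674 and CMPK1 at 0.0801. With FPKM as deposited, GALK1 (0.0590) and PGM1 (0.0563) did not pass, whereas MT1E (0.0142), FTH1 (0.0175) and CMPK1 (0.0223) did.

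B2M, the light chain of class I antigen-presenting molecules, was the only one of the 35 transcripts tied to a name, besides PLIN2, whose groups did not overlap. It was at 1668, 1829.7 and 2043 FPKM (lowest, median, highest) in cell-free milk and at 2188, 2493 and 4849 FPKM in milk cells. It was lower in the cell-free milk of 6 of 6 animals, most of all in M2, with a ratio of 0.344, and least in M1, with 0.934. The log2 fold change of -0.62 ± 0.16 (SE) had an adjusted p of 0.0534 and so missed the threshold, though it passed at 0.0497 with the 75th percentile and at 0.0353 with the sum outside the 50 highest. Without M2 it was -0.49 (adjusted p = 0.112). The other 2 genes of the antigen presentation list could not be named. CD24, a surface glycoprotein of mammary epithelium and of leukocytes, was at 4377, 6215 and 7064 FPKM in cell-free milk and at 4468, 5862 and 6705 FPKM in milk cells (log2 fold change 0.02, interval -0.27 to 0.31), with a sign that changed with the scaling.

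**Figure D4:**
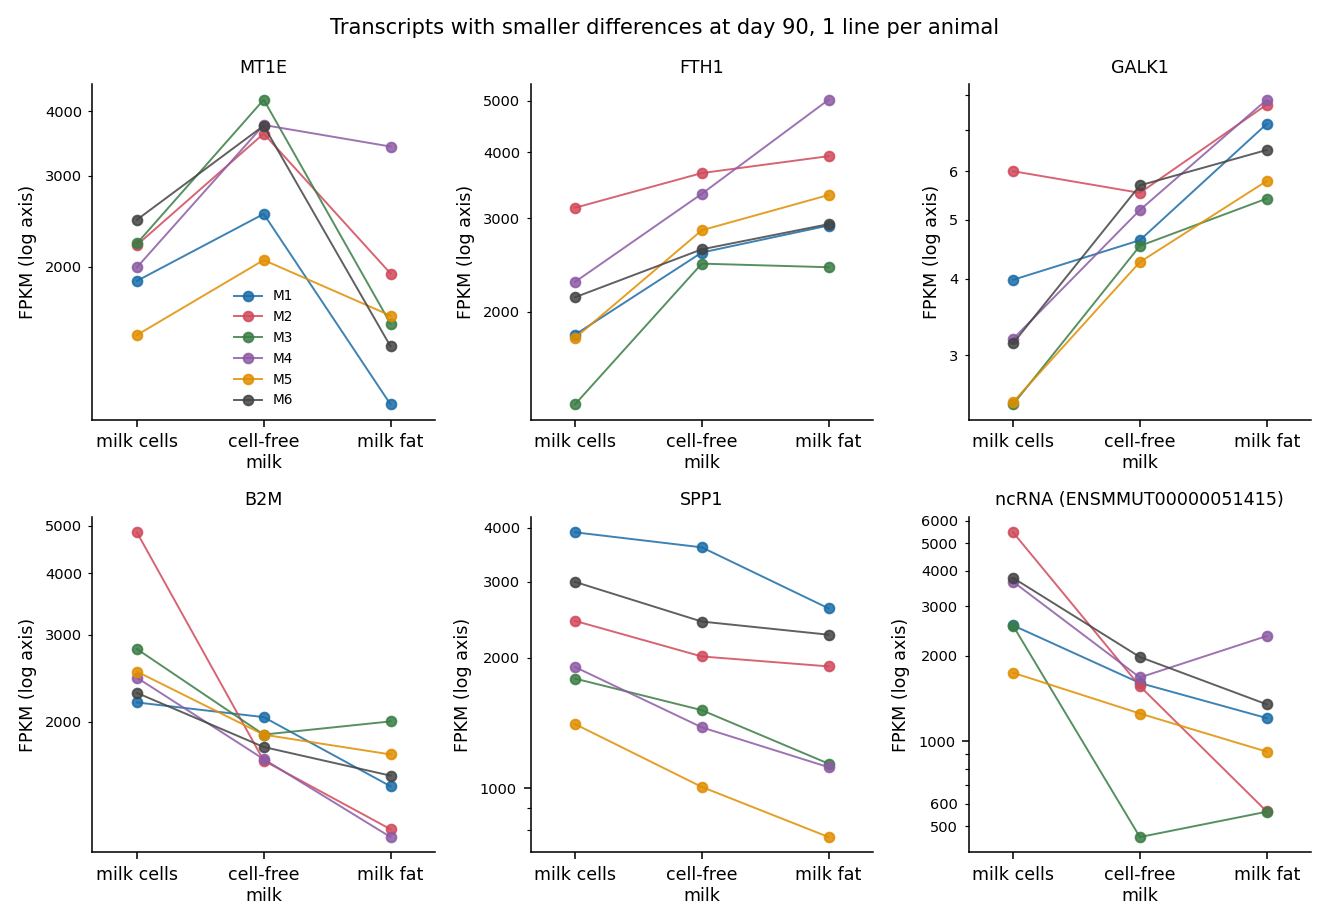
FPKM of 6 named transcripts on log axes, with 1 line per animal through milk cells, cell-free milk and milk fat of day 90. MT1E has its highest median, 3689 FPKM, in cell-free milk, FTH1 and GALK1 have theirs in milk fat, and B2M, SPP1 and the non-coding RNA are lower in cell-free milk than in milk cells in 6 of 6 animals. In M2, B2M is at 4849 FPKM in milk cells and at 1668 FPKM in cell-free milk.

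The 5 named non-coding RNAs are 75 to 94 bases long and were tied to identifiers with less certainty than the coding transcripts. They are shorter than the 100-base reads, which came from libraries selected for poly(A) RNA. The study found its most abundant non-coding RNAs to be homologous to human ribosomal RNAs, without giving identifiers. ENSMMUT00000051415, at chr2:123178536-123178615, fell from 1744, 3111 and 5466 FPKM (lowest, median, highest) in milk cells to 458, 1585 and 1982 FPKM in cell-free milk. It was lower in 6 of 6 animals, with ratios of 0.179 to 0.718, and its log2 fold change was -1.28 ± 0.29 (SE, adjusted p = 0.0427). The groups overlapped only in that the cell-free milk of M6 lay above the milk cells of M5. Leaving out M4 gave an adjusted p of 0.131, M2 0.106, M5 0.104, M6 0.0949 and M1 0.0561. The other 4 gave log2 fold changes between -0.40 and -0.13 and did not pass the test. As a share of the summed FPKM, the 5 together were lower in the cell-free milk of 6 of 6 animals, at 0.687% to 2.04% against 1.04% to 2.24%. That share includes ENSMMUT00000051415, whereas each of the other 4 was higher in the cell-free milk of 2 or 3 animals.

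The 63 transcripts called lower in cell-free milk had log2 fold changes from -5.14 to -1.59 with a median of -2.13, and their adjusted p lay between 0.000882 and 0.0499. Of the 63, 61 were lower in 6 of 6 animals, and for 45 the groups did not overlap. None is a named transcript, and they lie in 57 separate loci. In cell-free milk the median of their mean levels was 0.446 FPKM and 46 were under 1 FPKM on average. In milk cells the median was 9.47 FPKM, and 4 were over 50 FPKM. The selection used these same values, so the levels are a description.

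The largest fall was that of ENSMMUT00000026449, a locus of 168 bases at chr14:8929586-8929753 that overlaps no other transcript. It was listed at 0, 2.33 and 9.74 FPKM (lowest, median, highest) in cell-free milk and at 46.9, 94.4 and 242 FPKM in milk cells. Its log2 fold change was -5.14 ± 0.51 (SE, adjusted p = 0.00587). ENSMMUT00000000859, at chr20:130416-137332, was at 0.334, 0.619 and 4.06 FPKM against 11.99, 29.7 and 63.0 FPKM, a log2 fold change of -3.66 ± 0.35 (SE, adjusted p = 0.00585). Neither identifier is paired with a gene name in the files. In both, all 6 cell-free samples lay below all 6 milk cell samples, and both were also lower in milk fat than in milk cells, by -4.39 and -4.22.

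Summed over the 63, milk cells varied far more between animals than cell-free milk did. The sum ran from 342 FPKM in M1 to 2726 FPKM in M2 in milk cells, and from 63.6 FPKM in M1 to 139.98 FPKM in M6 in cell-free milk. M2 held the highest milk cell value for 44 of the 63, and M1 the lowest for 36. The same milk cells of M2 held the highest B2M level, the highest number of transcripts at or above 1 FPKM (14865) and the lowest milk protein share of their group. Without M2, 34 transcripts were called lower.

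The same sum is given for samples outside the fit as a description, since the 63 were chosen for being lower in the cell-free milk than in the milk cells of day 90. In the 6 milk cell samples of day 30, from the same animals, the sum over the 63 was 473 to 7852 FPKM, again highest in M2. In the 6 mammary biopsies, which are whole tissue, the sums were 909 to 1889.5 FPKM. In milk fat they were 73.8 to 210 FPKM at day 90 and 116 to 395 FPKM at day 30, where the highest sum, that of M2, lay above the lowest milk cell sum. A mean above the highest cell-free sample was found for 61 of the 63 in milk cells of day 30, for 27 in milk fat of day 30 and for 8 in milk fat of day 90. In the biopsies it was found for 55 at day 30 and for 54 at day 90, with 3 samples each. In the fit of milk fat against milk cells 60 of the 63 were lower in milk fat. Since that fit shares the milk cell samples by which the 63 were chosen, nothing is read from this count, nor from the 23.5% lower and 33.9% higher among all transcripts tested there.

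**Figure D5:**
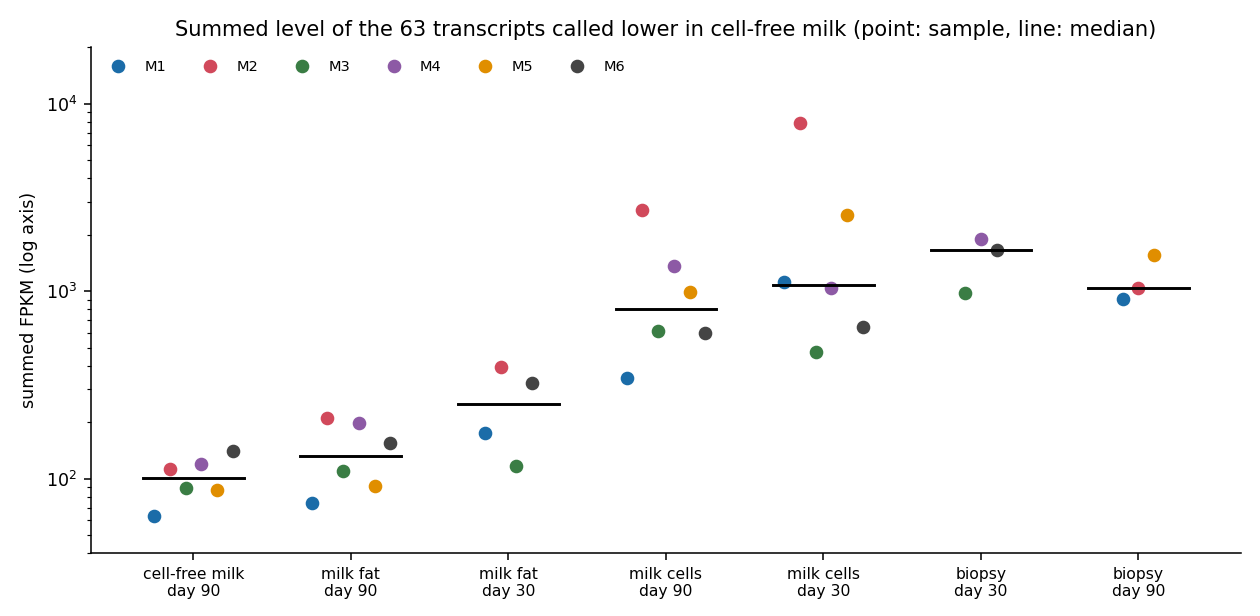
Summed FPKM, on a log axis, of the 63 transcripts called lower in cell-free milk than in milk cells, with 1 point per sample coloured by animal and a line at the median of each group. Cell-free milk lies between 63.6 and 139.98 FPKM and milk fat between 73.8 and 210 at day 90 and between 116 and 395 at day 30, whereas milk cells of both days and the biopsies lie between 342 and 7852.

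Beside PLIN2, only 2 transcripts were called higher, and both are single members of groups of overlapping transcripts. ENSMMUT00000009435, at chr10:20981232-20985051, was at 3.12, 8.80 and 13.04 FPKM in cell-free milk and was at or near 0 in most milk cell samples, whose median was 0.000455 FPKM and highest value 2.35 FPKM (log2 fold change 2.55 ± 0.25, adjusted p = 0.00587). In the third run alone its adjusted p was 0.150. A shorter transcript with the same start, at chr10:20981232-20983639, moved the other way, from 11.7, 23.2 and 32.7 FPKM in milk cells to 2.46, 3.74 and 7.91 FPKM in cell-free milk (log2 fold change -2.13 ± 0.12, adjusted p = 0.000882), and is 1 of the 63. It was singled out after its values were seen. Summed over the 4 overlapping transcripts, the locus fell in cell-free milk, with a log2 fold change of -0.83 ± 0.19 (adjusted p = 0.0351).

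ENSMMUT00000038451, at chr19:53824354-53851231, was at 0.0338, 3.14 and 6.39 FPKM against a highest value of 1.15 FPKM in milk cells (log2 fold change 1.62 ± 0.31, adjusted p = 0.0342). The sum over its 6 overlapping transcripts gave 0.26 ± 0.07 (adjusted p = 0.0488). Without M4 and without M5 its own adjusted p was 0.108 and 0.110, without M2 0.0817 and without M1 0.0584. Of the 69 transcripts called, 35 overlap at least 1 other. When the FPKM of overlapping transcripts were added up, 22 of these 35 had a sum that was called the same way, 28 had a sum past an adjusted p of 0.05 the same way and 5 had a sum of the other sign. The values of such transcripts depend on how reads were divided between them.

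The smaller differences varied with locus length and level. From 200 bases up, the median log2 fold change fell and the percentage lower rose with length, whereas shorter loci did not follow this order. The 92 transcripts under 100 bases had a median log2 fold change of -0.36, with 0 higher and 1 lower at an adjusted p under 0.05, and the 157 of at least 100 but under 200 bases a median of -0.11, with 7 higher and 6 lower. Among the 869 transcripts with a locus of 200 to 1000 bases, 7.71% were higher and 0.921% lower in cell-free milk at an adjusted p under 0.05, and the median log2 fold change was 0.25. Among the 3527 over 1000 and up to 10000 bases, 8.39% were higher and 3.12% lower, with a median of 0.14. Among the 7340 over 10000 and up to 100000 bases, 4.07% were higher and 3.94% lower, with a median of 0.03. Among the 1219 over 100000 and up to 300000 bases, 2.13% were higher and 4.51% lower, with a median of -0.032. Among the 167 over 300000 bases, 2.40% were higher and 4.79% lower, with a median of -0.035. For the 39 transcripts over 1000 FPKM the shares were 17.9% (7 transcripts) and 2.56% (1 transcript), and for the 6728 between 1 and 5 FPKM they were 1.59% and 4.03%. The 7 include 3 PLIN2 transcripts, MT1E and FTH1, which are described above. Between 5 and 20 FPKM 7.24% were higher, between 20 and 100 FPKM 11.9% and between 100 and 1000 FPKM 13.8%. The 63 lower transcripts had a median locus length of 4394 bases, beside 18849 bases for all tested, and 14 of them lie on chromosome 1, which holds 1494 of the transcripts tested, and 7 on chromosome 14, which holds 803.

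The number of transcripts at or above 1 FPKM was 12231 to 13056 in cell-free milk (median 12824.5) and 11163 to 14865 in milk cells (median 13064), lowest in M3 and highest in M2 in both. The mean difference of -366 transcripts (SD 946) did not pass an exact two-sided sign-flip permutation test over the 6 animals (p = 0.438, adjusted p = 0.438 over 2 measures). The 20 most abundant transcripts of each type took 70.6% to 76.4% of the summed FPKM in cell-free milk and 68.4% to 80.8% in milk cells, a mean difference of -2.37 percentage points (SD 2.43, lower in 5 of 6 animals, exact sign-flip permutation p = 0.0938, adjusted p = 0.188). Without M2 the mean difference in the number of transcripts was -76.8 and without M3 -652.2. The lists of the 20 shared 15 transcripts.

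The median over transcripts of the SD between animals was 0.23 on the log2 scale in cell-free milk and 0.30 in milk cells, and it was larger in milk cells for 67.8% of the 13371 transcripts. As a description, Spearman correlations over all transcripts were 0.930 to 0.938 between the cell-free samples of 15 pairs of animals and 0.917 to 0.933 between the milk cell samples. Within an animal, cell-free milk correlated with its milk cells at 0.916 to 0.933 and with its milk fat at 0.924 to 0.941. These correlations are across transcripts, which are not independent replicates.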

How the data were processed

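Per the labels and the study's methods, poly(A) RNA was read as single reads of 100 bases on an Illumina instrument. Trimmed reads were mapped to rheMac2 with Bowtie and TopHat, versions not given in the sources used here. The deposited values are FPKM that the authors obtained from Cufflinks for Ensembl release 67 transcripts, and Cufflinks divides reads between overlapping transcripts. FPKM carry no read counts, so no counting interval was computed. Levels and shares are FPKM as deposited, averaged over 3 technical runs. A further 6 columns match no sample and were not used.

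For the fits, each sample was divided by its median-of-ratios factor (22977 transcripts above 0 throughout), and log2(FPKM + 1) was fitted with limma 3.58.1 in R 4.3.3 (trended prior variance) for every transcript whose FPKM averaged 1 or more. Animal entered as a block. Folds on this scale understate the changes of low transcripts. A transcript was called where its adjusted p was below 0.05 and its fold above 3. The pairing comes from the animal labels, and deviations of same-animal samples from their group means correlated at 0.295 to 0.585. The milk samples of an animal at day 90 shared a sequencing pool (3 pools in all), so the sample types were compared within pools. P-values measure the spread between 6 animals. The procedure was tested on simulated data for this comparison with 13115 transcripts: it called 95.0% of 100 changes of 4-fold, 98.0% of 99 changes of 8-fold and 0 unchanged transcripts. The simulated noise was independent between transcripts, without differences in scale between samples. Changes were placed only where the mean of scaled FPKM + 1 was above 3. These rates therefore do not measure how far the real calls hold, least of all for low transcripts.

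Transcripts were named by identifiers the study prints, or because their mean level in each of 3 sample types (biopsy, cells, fat) matched a mean it tabulates (within 1.52% for coding and 9.77% for non-coding transcripts). The reference tables list no transcript identifiers of this kind. The text describes all transcripts so named except 1, which is not reported here, and the 2 largest fold changes in each direction among other calls shared by 6 of 6 animals. Members and lists were chosen with earlier results of these data known. Alternatives covered the scaling, filter, pseudocount, block, variance trend, single runs, labels, overlapping transcripts and each animal left out. Shares and levels used Python 3.11.15 with pandas 2.3.3, exact tests scipy 1.17.1, and plots matplotlib 3.10.9.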

Additional observations from a re-analysis of the deposited data

Results flagged for a closer look

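Among 90 groups of 6 samples, 11 held a sample whose gap to its nearest neighbour exceeded Dixon's 95% critical share of the group's range. Chance gives about 1 in 20 such groups where groups are independent and normally distributed. The groups here share the same 6 animals and were tested without a log scale, so no excess over that rate is read. Milk cells of M2 held 3 of the 11, with B2M at 4849 FPKM (nearest sample 2809.7 FPKM), FTL at 7071 FPKM (3406 FPKM) and ENSMMUT00000000859 at 63.0 FPKM (30.7 FPKM). M4 was low for UGP2 in cell-free milk at 104 FPKM (357 FPKM) and in milk cells at 62.8 FPKM (291 FPKM), for B4GALT1 in cell-free milk at 197 FPKM (317 FPKM) and for the non-coding RNA ENSMMUT00000052947 in milk cells at 1262 FPKM (2153 FPKM). It was high for CSN2 (ENSMMUT00000042085) in cell-free milk at 461314 FPKM (386436 FPKM). M5 was high in cell-free milk for LTF at 8851 FPKM (3949 FPKM) and LGB2 at 105016 FPKM (80335 FPKM), and in milk cells for ENSMMUT00000038451 at 1.15 FPKM (0.00281 FPKM).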

How the results depend on the processing

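For the 39 transcripts named by these rules, 815 alternative values were computed: 668 kept their direction and their side of the threshold, 88 lost an adjusted p under 0.05, 27 gained it and 32 changed sign. All 4 PLIN2 transcripts kept their direction throughout, and they passed in all alternatives except ENSMMUT00000019645 without a filter (adjusted p = 0.0648). The cause of these changes was not tested. FPKM carry no read counts, and changes of low transcripts depend on the pseudocount.

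With 75th percentile scaling 176 transcripts were past the threshold and higher, and with FPKM as deposited 1459, with the sum outside the 50 highest 115.0, and without the variance trend 434. A mean of at least 5 FPKM gave 1126 higher and 291 lower past the threshold and 35 called lower. Without a filter these were 6, 17 and 2, with 3 called higher. Without the replicate block, which drops the pairing by animal, they were 64, 115.0 and 38. Runs 1, 2 and 3 alone gave 62, 44 and 72 higher and 120, 129 and 143 lower, and runs 1 and 2 gave 40 and 35 called lower. With the 3 sample types in a single fit, 1501 were higher and 744 lower. The 4 animals labelled FatS10 gave 26 called lower. A pseudocount of 0.1 gave 12 called higher and 185 lower, and of 5 gave 5 lower. Leaving out each animal gave 5 to 7 called higher, 12 to 73 called lower, 7 to 2343 past the threshold and higher, and 30 to 1285 lower. These last counts moved by over 1.5 times with any of the 6 animals left out, and were highest without M3 and lowest without M4. Cell-free milk against milk fat had 276 calls at a pseudocount of 0.1 and 40 to 106 with an animal left out, and milk fat against milk cells 771 and 174 to 339. At 5 FPKM the difference in number of transcripts was 37.

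Log2 fold changes that changed sign were small, except for ENSMMUT00000009435, at -0.83 when summed over overlapping transcripts. CD24 was at -0.071 with the 75th percentile, -0.15 with the sum outside the 50 highest, -0.0079 and -0.014 in runs 2 and 3 and -0.0038 summed over overlapping transcripts, and CSN2 (ENSMMUT00000006853) at -0.066, -0.15, -0.020 in run 1, -0.0084 in run 2 and -0.089 when summed. LGB2 was at -0.049 and -0.13 under the 2 scalings, and LALBA was at -0.017 and LYZ at -0.0033 under the second. CSN2 (ENSMMUT00000042085), CSN3 and FTL were at 0.048, 0.12 and 0.064 in the FatS10 animals, and FTL at 0.017 as deposited and 0.0082 in the fit of 3 types. The non-coding RNA ENSMMUT00000052947 was at 0.085 in run 3. With each animal left out, CD24 ran from -0.018 to 0.10, CSN2 from -0.035 to 0.088 (ENSMMUT00000006853) and from -0.18 to 0.0076 (ENSMMUT00000042085), CSN3 from -0.21 to 0.060, FTL from -0.091 to 0.12, LGB2 from -0.079 to 0.13 and ENSMMUT00000052199 from -0.50 to 0.12.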
